A study of Mus musculus with 11 samples.

Results

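The matrix metalloproteinases (Mmp), the Adam, Adamts and Adamts-like genes and the tissue inhibitors of metalloproteinases (Timp) were examined in sorted keratinocytes of mouse back skin. Members were the genes whose platform annotation gives a single symbol made of Mmp, Adam, Adamts, Adamtsl or Timp, a number and at most 1 further letter. The rule found 70 of the 18193 genes with a single symbol, of which 18 were Mmp, 28 Adam, 15 Adamts, 5 Adamtsl and 4 Timp genes. Where a gene had several probe sets, the brightest over all 11 arrays stood for it.

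CD34+ cells (5 arrays) were set against CD34- cells (6 arrays). All cells came from K5-myrAkt(L84) mice, which carry a membrane-targeted Akt driven by the keratin 5 promoter of basal keratinocytes, so the transgene is shared by both fractions. No fraction without the transgene was analysed here, and the comparison measures no effect of Akt. Cells were bound by an antibody to CD34, which bulge stem cells of the hair follicle carry on their surface, and parted with magnetic beads. The cell type label also calls the CD34- cells follicle stem cells, which the design text does not. The labels used here give no age, and no label tells if each array is another mouse. The p-values therefore speak only of the spread among these arrays, which may be technical.

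Metalloproteases of these families cut matrix proteins and shed proteins from the cell surface. Mmps are secreted or tethered to the membrane and degrade collagens, gelatins and other matrix. Adam proteins span the membrane and many of them shed growth factors, receptors and Notch, although several are catalytically inactive. Adamts enzymes are secreted and cut proteoglycans and procollagens, Adamts-like proteins lack the protease domain and sit in the matrix, and Timps inhibit the proteases by binding their active site. In hair follicles this balance is known to take part in matrix turnover as follicles grow and regress.

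The sort could be checked on the arrays. The log2 signal of Cd34 averaged 11.83 ± 1.17 across the 5 CD34+ arrays and 4.20 ± 1.57 across the 6 CD34- arrays (SD). Of 10 bulge stem cell markers tested, 9 were called higher (adjusted p under 0.05) in CD34+ cells, although Fgf18 and Lhx2 averaged under the brightness filter, a log2 signal of 6.59, in CD34- cells and were tested only through their CD34+ values. Of 6 basal keratinocyte markers 2 were called lower, Itga6 (-0.53, adjusted p = 0.00214) and Trp63 (-0.38, adjusted p = 0.04), and the others were not called. CD34+ arrays 1 and 2 stood apart, with a mean correlation to the other CD34+ arrays of 0.85 and 0.87, against 0.89 for CD34+ arrays 3 to 5 and 0.92 to 0.93 within the CD34- arrays. The log2 ratio of the 3-prime to the 5-prime actin control, a measure of RNA length, was 2.91 to 5.25 on CD34+ arrays and 2.19 to 2.76 on CD34- arrays. The same ratio of the Gapdh control overlapped between the fractions, at 2.96 to 3.69 on CD34+ arrays and 3.00 to 3.43 on CD34- arrays. Array medians were higher on CD34+ arrays, at 6.71 to 7.23, than on CD34- arrays, at 6.36 to 6.51.

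Of the 70 members, 15 passed the brightness filter, which keeps genes whose log2 signal averages 6.59 or more over all arrays, and 55 were too dim to be tested. A call means an adjusted p under 0.05 in limma, fitted and adjusted over all 10916 genes that passed. Calls were made for 7 of the 15 tested members (46.7%), 5 of them higher and 2 lower in CD34+ cells, beside 24.7% of all genes tested. Of all genes tested, 12.4% were called higher and 12.3% lower. The groups did not overlap for 4 of the 15, beside 15% of all genes tested, and 4 were called with a difference of at least 2-fold, beside 6.93%. Adam33, counted among the higher, the non-overlapping and the 2-fold members, averaged 6.36 on CD34- arrays and passed through its CD34+ values. Adam4, counted as higher, was not called in 9 of the 11 fits without 1 array. The median log2 difference of the 15 was -0.01, and that of all genes tested was -0.004. With equal array medians, which lower the median of all genes tested to -0.48, the split was 3 higher and 7 lower, in a fit that called 51.4% of all genes. In bulk cells, fewer cells of a type and less RNA per cell cannot be told apart.

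**Figure D1:**
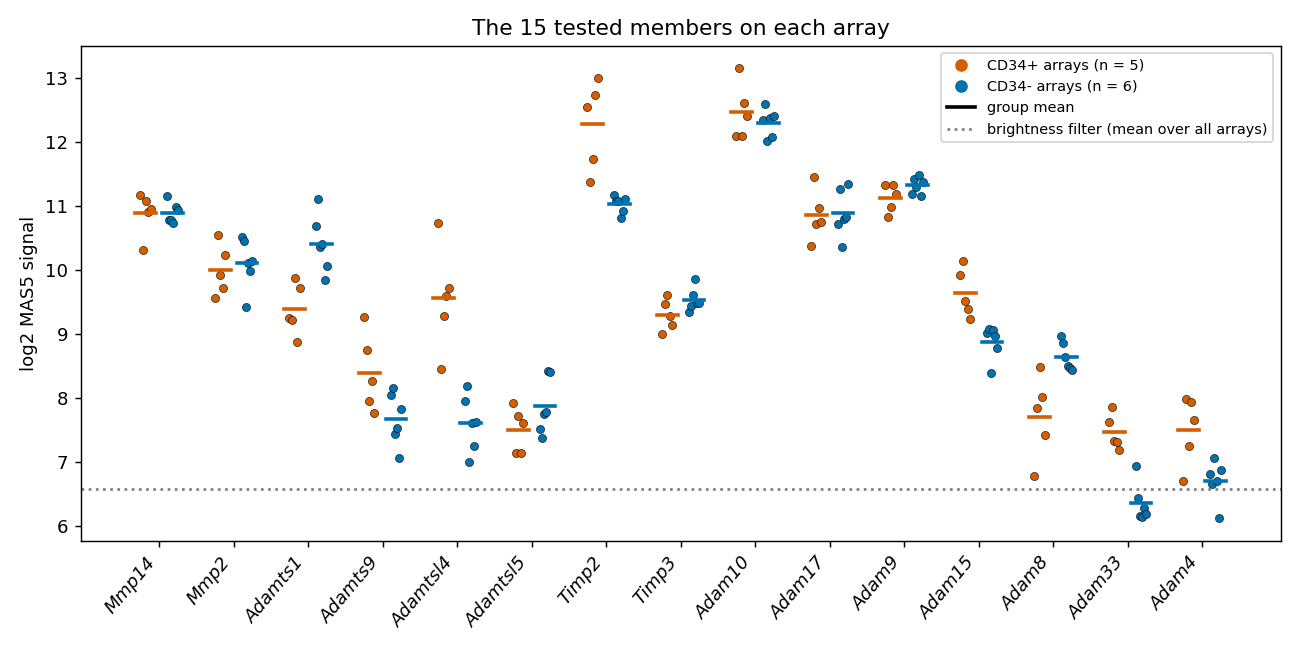
Log2 MAS5 signal of the 15 members that passed the brightness filter, one point per array, CD34+ arrays (n = 5) left of CD34- arrays (n = 6), with bars at the group means and a dotted line at the filter. For Timp2, Adamtsl4, Adam15 and Adam33 the lowest CD34+ point lies above the highest CD34- point.

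**Figure D2:**
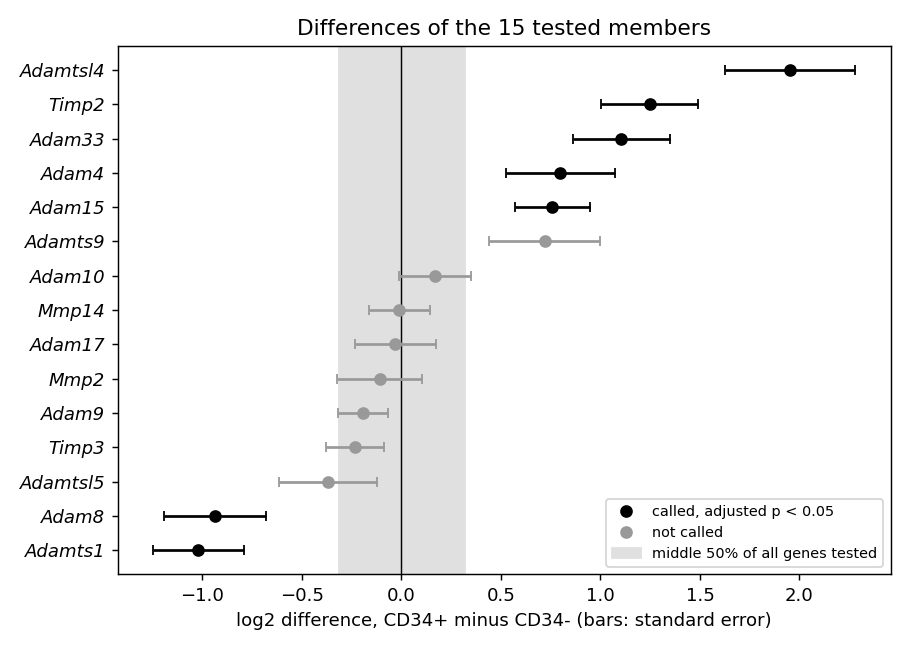
Log2 difference, CD34+ minus CD34-, of the 15 tested members with its standard error as a bar, and the middle 50% of all genes tested shaded (-0.32 to 0.32). The 7 called members (black) lie outside the shaded band, from -1.02 for Adamts1 to 1.95 for Adamtsl4.

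The RefSeq table holds promoters of 5 of the 7 called members. They are shown for Timp2 and Adamtsl4, which were higher, and Adamts1, which was lower, to place sequence beside the values below. Each run is the 250 bases before the gene's start in GRCm38.p6, 5′ to 3′, with the GC box letters GGGCGG on either strand in capitals.
Timp2, chr11:118355412-118355661, - strand: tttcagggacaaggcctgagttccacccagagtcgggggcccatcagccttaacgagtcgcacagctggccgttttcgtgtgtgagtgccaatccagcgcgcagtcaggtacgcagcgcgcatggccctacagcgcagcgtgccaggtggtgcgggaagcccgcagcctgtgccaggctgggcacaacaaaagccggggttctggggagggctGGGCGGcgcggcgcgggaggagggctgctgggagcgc
Adamtsl4, chr3:95687918-95688167, - strand: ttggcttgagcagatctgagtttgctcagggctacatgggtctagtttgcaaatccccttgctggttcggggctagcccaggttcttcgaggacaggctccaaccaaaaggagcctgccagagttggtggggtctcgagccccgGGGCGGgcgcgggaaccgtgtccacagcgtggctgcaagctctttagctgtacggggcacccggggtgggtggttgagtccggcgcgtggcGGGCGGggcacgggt
Adamts1, chr16:85803114-85803363, - strand: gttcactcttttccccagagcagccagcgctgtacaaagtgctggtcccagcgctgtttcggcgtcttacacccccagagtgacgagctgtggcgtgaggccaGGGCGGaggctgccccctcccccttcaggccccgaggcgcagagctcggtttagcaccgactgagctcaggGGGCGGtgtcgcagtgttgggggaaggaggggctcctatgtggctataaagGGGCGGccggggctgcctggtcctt
The GC box letters stood once in the Timp2 run, in 2 places in the Adamtsl4 run and in 3 in the Adamts1 run. They were found for all 11 tested members with a promoter in the table, beside 64.9% of all tested genes and 32.7% of all 32851 promoters, so most genes bright enough to be tested hold them. The AP-1 letters TGANTCA were in none of these 11. A match is a description of the letters and not of a bound factor.

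Timp2 was the member whose difference held in every setting tried. Timp2, which binds Mmp14 at the cell surface and both takes part in activating Mmp2 and inhibits Mmps, had log2 signals of 12.56, 11.37, 11.74, 12.74 and 12.995 on CD34+ arrays 1 to 5, against 10.82 to 11.18 with a median of 11.08 on CD34- arrays. Every CD34+ array was above every CD34- array, and CD34+ arrays 2 and 3 were the lowest of the 5. The mean was 12.28 ± 0.69 (SD, n = 5) in CD34+ cells and 11.03 ± 0.14 (SD, n = 6) in CD34- cells, a log2 difference of 1.25 (SE 0.24, limma adjusted p = 0.00308), or 2.37-fold. All 3 other Timp2 probe sets that passed were called higher too, with differences of 1.36, 1.46 and 1.17. Without CD34+ arrays 1 and 2 the difference was 1.46 (adjusted p = 7.43e-04), and in the model that also held the actin ratio it was 1.73 (adjusted p = 0.0355). That model called 1.15% of all genes, and Timp2 alone of the members.

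The other Timps were not called or not tested. Timp3, which is held in the matrix and inhibits Adam17 and several Adamts enzymes, had log2 signals of 9.01, 9.47, 9.62, 9.29 and 9.14 on CD34+ arrays and 9.35 to 9.86 with a median of 9.49 on CD34- arrays. These overlap, and the difference was -0.23 (SE 0.15, adjusted p = 0.252). With equal array medians Timp3 was called lower (-0.71, adjusted p = 0.00398). Timp1, an inhibitor of many secreted Mmps, was too dim to be tested, with 5.08 to 6.69 and a median of 6.49 on CD34+ arrays and 5.70 to 6.05 with a median of 6.02 on CD34- arrays. Timp4 was dim as well and varied more, at 3.02 to 6.70 on CD34+ arrays and 4.62 to 6.32 on CD34- arrays. The log2 signal of Timp2 minus that of Timp3 within an array averaged 2.97 ± 0.90 across the 5 CD34+ arrays and 1.49 ± 0.30 across the 6 CD34- arrays (SD). These differences did not overlap, so Timp2 and Timp3 did not change equally.

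The Mmp genes that passed the brightness filter, Mmp14 and Mmp2, were not called on their brightest probe sets. Mmp14, a membrane-type collagenase that activates Mmp2, had log2 signals of 11.17, 10.32, 11.08, 10.91 and 10.96 on CD34+ arrays and 10.74 to 11.15 with a median of 10.87 on CD34- arrays. The difference was -0.01 (SE 0.15, limma adjusted p = 0.966). Mmp2, a gelatinase that degrades type IV collagen of basement membranes, had 9.57, 10.55, 9.92, 9.72 and 10.23 on CD34+ arrays and 9.42 to 10.52 with a median of 10.13 on CD34- arrays. Its difference was -0.11 (SE 0.21, limma adjusted p = 0.735). With equal array medians Mmp2 was called lower (-0.59, adjusted p = 0.0265). The log2 signal of Timp2 minus that of Mmp14 averaged 1.39 ± 0.56 across the 5 CD34+ arrays, from 0.65 to 2.04, and 0.13 ± 0.15 across the 6 CD34- arrays, from -0.07 to 0.30 (SD), without overlap. Timp2 minus Mmp2 did overlap, at 0.82 to 3.02 on CD34+ arrays and 0.62 to 1.66 on CD34- arrays.

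Dimmer probe sets of several members disagreed with the brightest one. The second Mmp14 probe set had 4.89, 4.56, 6.63, 5.10 and 6.64 on CD34+ arrays and 6.77 to 7.46 on CD34- arrays, without overlap, and a difference of -1.62 (SE 0.40, adjusted p = 0.0135 over all probe sets). That of Mmp2 differed by -0.96 (SE 0.30, adjusted p = 0.0377), with 7.73 on CD34+ array 1 and 9.25 to 9.63 on the other CD34+ arrays. Dimmer probe sets were also called lower for Adam10 (-1.88, adjusted p = 0.0328), Adam17 (-0.85, adjusted p = 0.0336) and Timp3 (-1.29, adjusted p = 0.0131), while their brightest were not called. The remaining probe sets that passed were not called for Timp3 (-0.41 and 0.33) or Adam17 (0.29). Mmp17, under the filter over genes, passed that over probe sets and was called higher there (1.02, SE 0.32, adjusted p = 0.0345). Its mean was 6.74 on CD34+ arrays and 5.71 on CD34- arrays, so it passed through its CD34+ values. The Adam10 probe set read 4.21 on both CD34+ arrays 1 and 2 and 6.83 to 7.26 on arrays 3 to 5, against 7.33 to 8.55 on CD34- arrays. The actin ratio was highest on CD34+ arrays 1 and 2, at 5.25 and 4.56, and its part in these probe sets was not tested, nor do the files used here give their position in the transcript.

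**Figure D3:**
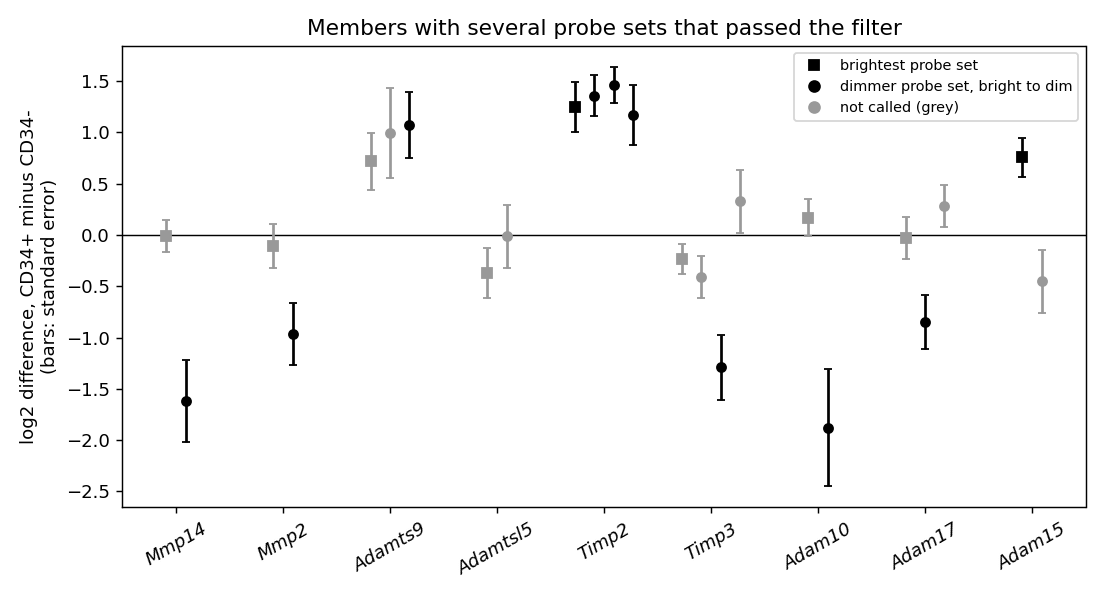
Log2 difference, CD34+ minus CD34-, with its standard error for every probe set that passed the filter, for the 9 tested members with more than 1 such probe set, squares marking the brightest. The 4 Timp2 probe sets lie together between 1.17 and 1.46, while those of Mmp14, Mmp2, Timp3, Adam10 and Adam17 spread to called negative values.

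Of the secreted proteoglycanases tested, Adamts1 was lower in CD34+ cells and Adamts9 was not called. Adamts1, which cuts aggrecan and versican, had log2 signals of 9.26, 9.22, 9.88, 8.88 and 9.72 on CD34+ arrays and 9.85 to 11.11 with a median of 10.38 on CD34- arrays. CD34+ array 3 overlapped the lowest CD34- array. Adamts1 fell by 1.02 on the log2 scale (SE 0.23, adjusted p = 0.00677), which is 2.03-fold lower in CD34+ cells, and remained called without CD34+ arrays 1 and 2 (-0.92, adjusted p = 0.0323) but not in the model that held the actin ratio (-0.98, adjusted p = 0.255). Adamts9, which cuts versican, was not called (0.72, SE 0.28, adjusted p = 0.0735), with 9.26, 8.75, 7.95, 8.26 and 7.77 on CD34+ arrays and 7.07 to 8.16 on CD34- arrays. Its value was called higher in the fit without CD34+ array 5 (0.88, adjusted p = 0.0405), and its dimmest probe set that passed was called higher (1.07, adjusted p = 0.031).

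Adamtsl4 had the largest difference of the 15 tested members. Adamtsl4, a matrix protein without protease domain that associates with fibrillin microfibrils, had log2 signals of 10.73, 8.46, 9.29, 9.60 and 9.72 on CD34+ arrays and 6.999 to 8.19 with a median of 7.62 on CD34- arrays. CD34+ array 1 was the highest and array 2 the lowest, and no CD34+ array reached down to the CD34- range. Adamtsl4 rose by 1.95 (SE 0.33, adjusted p = 0.00136), which is 3.87-fold, and by 1.93 without CD34+ arrays 1 and 2 (adjusted p = 2.48e-04). In the model that held the actin ratio its difference was 1.65, not called (adjusted p = 0.171). Adamtsl5, another member of this group, was not called (-0.37, SE 0.25, adjusted p = 0.287), except lower with equal array medians (-0.85, adjusted p = 0.0198).

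Of the 7 Adam genes tested, 3 were called higher, 1 lower and 3 not called. Adam15, an adhesive Adam with an integrin-binding motif in human, had 9.92, 10.14, 9.52, 9.39 and 9.24 on CD34+ arrays and 8.39 to 9.09 with a median of 8.997 on CD34- arrays. It rose by 0.76 (SE 0.19, adjusted p = 0.0115), or 1.69-fold, with no overlap. CD34+ arrays 1 and 2 were its highest, and without them the difference was 0.50 and no longer called (adjusted p = 0.0633). The call was also lost with equal array medians (0.28, adjusted p = 0.17) and with the mean of its probe sets (0.58, adjusted p = 0.109). Its other probe set that passed was not called (-0.45, adjusted p = 0.306), and the model that held the actin ratio gave 0.25 (adjusted p = 0.709).

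Adam33, an Adam known in human from mesenchymal cells of the airway, had 7.64, 7.86, 7.33, 7.31 and 7.19 on CD34+ arrays and 6.14 to 6.94 with a median of 6.24 on CD34- arrays. It rose by 1.10 (SE 0.24, adjusted p = 0.00624), or 2.15-fold, and the groups did not overlap. Its mean on CD34- arrays was 6.36, under the filter of 6.59, so it passed through its CD34+ values. After quantile normalization the difference was 0.69 (adjusted p = 0.0443), and it was not called in the model that held the actin ratio (0.79, adjusted p = 0.378) or without CD34+ arrays 1, 2 and 3 (0.89, adjusted p = 0.0612). Adam4, known from mouse testis, had 6.71, 7.98, 7.26, 7.93 and 7.66 on CD34+ arrays and 6.13 to 7.06 on CD34- arrays, and its call (0.80, SE 0.28, adjusted p = 0.0476) was missing from 9 of the 11 fits without 1 array (highest adjusted p = 0.104) and after quantile normalization (0.40, adjusted p = 0.334) or with equal array medians (0.32, adjusted p = 0.344).

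Adam8, a leukocyte-associated sheddase, was lower in CD34+ cells. It had log2 signals of 6.79, 7.85, 8.48, 8.01 and 7.43 on CD34+ arrays and 8.44 to 8.97 with a median of 8.57 on CD34- arrays. CD34+ array 3 overlapped the CD34- range and CD34+ array 1 was the lowest. Adam8 fell by 0.94 on the log2 scale (SE 0.26, adjusted p = 0.0181), or 1.91-fold. Without CD34+ arrays 1 and 2 the difference was -0.67 (adjusted p = 0.0515), without CD34- arrays 1 and 2 it was -0.80 (adjusted p = 0.0873), and the model that held the actin ratio gave -0.49 (adjusted p = 0.629).

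The main Adam sheddases were not called. Adam10, which sheds Notch receptors and ligands, had 12.10, 13.15, 12.10, 12.62 and 12.40 on CD34+ arrays and 12.02 to 12.60 with a median of 12.36 on CD34- arrays (difference 0.17, SE 0.18, adjusted p = 0.516). Adam17, which releases tumour necrosis factor and ligands of the EGF receptor, had 10.38, 11.45, 10.72, 10.97 and 10.76 on CD34+ arrays and 10.36 to 11.35 on CD34- arrays (difference -0.03, SE 0.20, adjusted p = 0.928). Adam9 had 11.33, 10.82, 10.98, 11.33 and 11.19 on CD34+ arrays and 11.16 to 11.49 on CD34- arrays (difference -0.19, SE 0.13, adjusted p = 0.267). With equal array medians Adam9 and Adam17 were called lower, at -0.67 and -0.51.

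Markers of other cells moved with the fractions. The filter shapes these counts, since some markers averaged under it in 1 fraction and passed through the other. They were Cd7 of the T cell list, Pdgfra of the fibroblast list, and C1qb and Lyz2 of the macrophage list. Of the T cell markers 4 of 4 tested were called lower, and the summed linear signal of the 6 markers measured was 375 to 1378 on CD34+ arrays and 2027 to 4134 on CD34- arrays. Of the fibroblast markers 3 of 3 tested were called higher, with sums over 7 markers of 3175 to 8706 on CD34+ arrays and 522 to 920 on CD34- arrays. Col1a2, the brightest of the 7, had 11.09 to 12.59 on CD34+ arrays and 7.61 to 8.71 on CD34- arrays. The other 4 were too dim to be tested. Col1a1 overlapped, at 4.91 to 9.06 on CD34+ arrays and 4.04 to 6.19 on CD34- arrays. Col3a1 did not, at 7.09 to 10.19 on CD34+ arrays and 2.22 to 6.98 on CD34- arrays. Lum and Dpt were dim in both fractions, at means of 4.79 and 5.24 on CD34+ arrays and 4.48 and 4.99 on CD34- arrays. Of the macrophage and dendritic cell markers 3 of 5 tested were called higher, with sums over 8 of 1805 to 4407 on CD34+ arrays and 970 to 1581 on CD34- arrays. The smooth muscle marker Acta2 was called higher (2.05, adjusted p = 0.0153), and the other 4 of its list were too dim to be tested. Acta2 was the brightest of the 5. Sums over the 5 markers overlapped, at 452 to 4286 on CD34+ arrays and 276 to 462 on CD34- arrays. Kit, of the mast cell and neutrophil list, was called lower (-1.33, adjusted p = 0.00195). The other marker tested of that list, S100a8, was not called (0.004), and 4 were too dim to be tested. Sums over the 6 markers overlapped, at 477 to 1419 on CD34+ arrays and 933 to 1680 on CD34- arrays. None of the 5 endothelial markers was bright enough to be tested. None of the 5 melanocyte markers was called, but CD34- arrays 1 and 2 stood apart in them, with Tyrp1 at 12.63 and 12.85 against 9.88 to 10.29 on the other CD34- arrays. Adam8 and Adamts1 were also highest on those arrays, and without them Adamts1 remained called (-0.78, adjusted p = 0.0334) and Adam8 did not. The part of these cells in the differences of Adam8, Adam33, Timp2 and the other called members was not tested.

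The remaining 55 members were too dim to be tested and are accounted for by family. They were 16 Mmp, 21 Adam, 13 Adamts, 3 Adamtsl and 2 Timp genes, and 16 of them, 11 Adam and 5 Mmp genes, lay under the 40th percentile of the array on all 11 arrays. Adamts10, at a mean log2 signal of 6.56, was the brightest just below the filter, and Adam33, at 6.86, the dimmest just above it. The untested Adam genes had mean log2 signals of 1.82 to 5.89. Adamts10, which binds fibrillin, had 5.42 to 7.55 on CD34+ arrays and 5.52 to 6.95 on CD34- arrays. Adamts3, which trims procollagen, had 4.02 to 7.82 on CD34+ arrays and 0.76 to 4.92 on CD34- arrays, with overlap. Mmp19 had 3.51 to 6.97 on CD34+ arrays and 3.72 to 6.06 on CD34- arrays. Mmp9, the other gelatinase, had 4.42 to 8.04 with a median of 6.74 on CD34+ arrays and 5.86 to 7.55 with a median of 6.47 on CD34- arrays. The stromelysin gene Mmp3 averaged 5.57 ± 0.91 (SD, n = 5) in CD34+ cells and 6.36 ± 0.21 (SD, n = 6) in CD34- cells. The collagenase gene Mmp13 averaged 3.10 ± 2.28 (SD, n = 5) in CD34+ cells and 2.65 ± 2.22 (SD, n = 6) in CD34- cells. The mean on CD34+ arrays was above that on CD34- arrays for 43 of the 55 and below it for 12. The median difference of the untested members was 0.70, and that of all untested genes was also 0.70.

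Adamts19 was the only untested member whose groups did not overlap. Of all genes tested, 15% did not overlap, and no such share is given here for the untested genes. It had log2 signals of 7.08, 6.22, 6.02, 6.83 and 7.07 on CD34+ arrays and 0.54 to 4.70 with a median of 2.64 on CD34- arrays, with all 6 CD34- values and those of CD34+ arrays 2 and 3 under the 40th percentile of their arrays. With that percentile as a floor on CD34- arrays only, its signal came to 1.88-fold higher in CD34+ cells. The percentile itself was higher on CD34+ arrays, at 6.037 to 6.658, than on CD34- arrays, at 5.631 to 5.865. The 1.88-fold therefore includes this offset between the arrays and is no lower bound on the change in the cells. Limma without the brightness filter called Adamts19, Mmp23 and Adam23 higher among these dim members, in a fit that called 14.7% of all 18193 genes. Over all 70 members that fit called 7 higher and 2 lower. Of the dim ones named, only Adamts19 was also called with quantile normalization (adjusted p = 0.00645), where 10.7% of all genes were called. Fitted differences of Adamts19, Mmp23 and Adam23 are not given, since Mmp23 lay under that percentile on all 11 arrays, and Adam23 did on 5 of the 6 CD34- arrays and 1 CD34+ array.

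**Figure D4:**
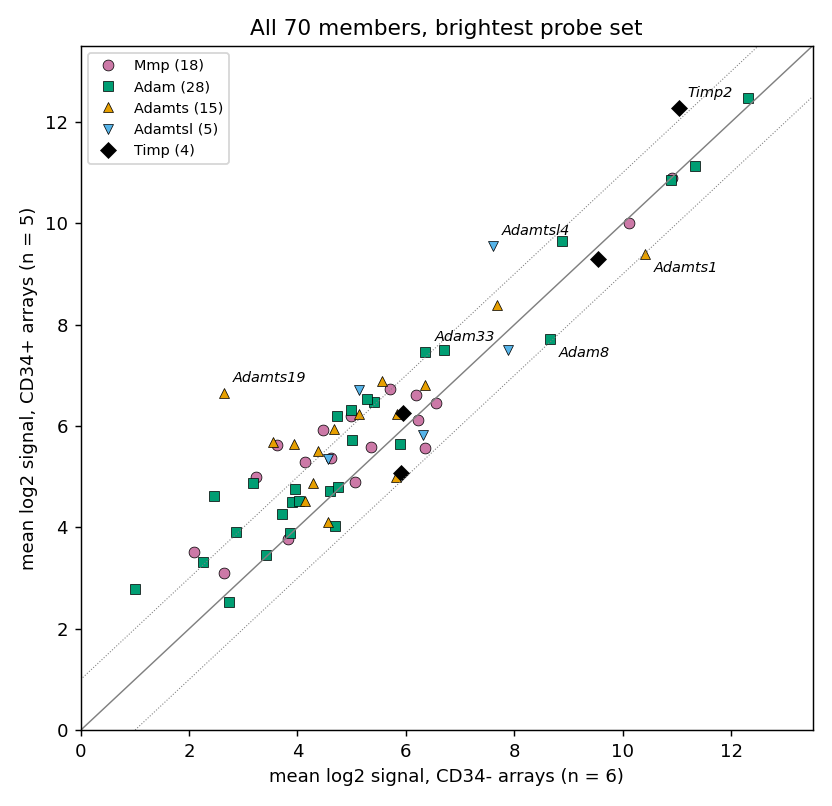
Mean log2 signal of all 70 members on CD34+ arrays (vertical axis, n = 5) against CD34- arrays (horizontal axis, n = 6), by family, with the line of equality and dotted lines 1 log2 unit to either side. Most dim members lie above the line, Adamts19 the farthest, and among the brighter ones Timp2 and Adamtsl4 lie above and Adamts1 and Adam8 below.

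The dim Mmps include a cluster on chromosome 9 whose promoters carry other letters. Of the 18 Mmp members 9 are on chromosome 9 and none of those passed the filter. The AP-1 letters TGANTCA, with any base as N, were in a promoter of 8 of these 9, and of 10 members in all, beside 6.75% of all promoters. Members were counted once over their promoters, while the 6.75% counts each promoter. In Mmp20 and Adam25 the match was TGAATCA, and in the others TGAGTCA or TGACTCA. The runs of Mmp3, Mmp10 and Mmp13 show them in capitals in the 250 bases before the start, 5′ to 3′ in GRCm38.p6.
Mmp3, chr9:7445572-7445821, + strand: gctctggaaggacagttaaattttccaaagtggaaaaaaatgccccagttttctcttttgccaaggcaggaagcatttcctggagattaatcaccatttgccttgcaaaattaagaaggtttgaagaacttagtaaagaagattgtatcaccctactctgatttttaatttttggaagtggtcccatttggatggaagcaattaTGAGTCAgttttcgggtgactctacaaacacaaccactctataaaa
Mmp10, chr9:7502092-7502341, + strand: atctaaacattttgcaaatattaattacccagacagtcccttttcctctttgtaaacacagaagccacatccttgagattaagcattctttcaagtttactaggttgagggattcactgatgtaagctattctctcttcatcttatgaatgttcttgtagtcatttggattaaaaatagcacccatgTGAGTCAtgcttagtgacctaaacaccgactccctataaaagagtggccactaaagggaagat
Mmp13, chr9:7272264-7272513, + strand: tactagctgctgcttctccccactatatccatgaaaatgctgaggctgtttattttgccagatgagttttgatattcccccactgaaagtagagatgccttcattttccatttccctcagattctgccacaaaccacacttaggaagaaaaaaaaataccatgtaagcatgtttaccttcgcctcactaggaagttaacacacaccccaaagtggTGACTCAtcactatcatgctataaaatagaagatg
AP-1 is a dimer of Fos and Jun proteins known to drive Mmp genes in stimulated cells, and the data here do not measure its binding. Over genes not tested the share with these letters was 8.67%, beside 33.3% of the untested members that have a promoter.

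Among other genes of extracellular proteolysis 4 were called higher and 8 lower of 29 tested (41.4%, beside 24.7% of all genes). With equal array medians the split was 1 higher and 15 lower, in a fit that called 51.4% of all genes, and without CD34- arrays 1 and 2 it was 3 higher and 4 lower, beside 14.8% of all genes called. The cofactors that carry Adam10 and Adam17 to the cell surface had 3 lower and none higher of 5 tested. Rhbdf2, an iRhom that takes part in maturing Adam17, had 7.32, 7.76, 8.14, 7.45 and 7.95 on CD34+ arrays and 8.78 to 9.51 on CD34- arrays. These did not overlap, and Rhbdf2 fell by 1.43 (SE 0.20, adjusted p = 4.17e-04). The Adam10-binding tetraspanins Tspan5 (-1.11, SE 0.31, adjusted p = 0.02) and Tspan14 (-0.57, SE 0.17, adjusted p = 0.0281) fell as well, neither of them called without CD34- arrays 1 and 2 (adjusted p = 0.0594 and 0.103). Without CD34+ array 1, where Tspan5 was 8.82 against 10.45 to 11.06 on the other CD34+ arrays, its difference was -0.72. Tspan14 was not called in 4 of the 11 fits without 1 array (highest adjusted p = 0.0625), and Adam10 and Adam17 themselves were not called on their brightest probe sets. Rhbdf1, the other iRhom tested, was not called (-0.26, adjusted p = 0.236), nor was the tetraspanin gene Tspan17 (0.42, adjusted p = 0.0816). Rhbdf1 was brighter than Rhbdf2, at 10.83 to 11.81 on CD34+ arrays and 11.60 to 11.86 on CD34- arrays. Maturation of Adam17 was not tested.

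Mme, neprilysin, a cell surface metallopeptidase that is no member by the rule, had the largest difference of these genes. It had 11.14, 9.61, 9.61, 10.82 and 10.81 on CD34+ arrays and 5.69 to 7.66 with a median of 7.53 on CD34- arrays, and rose by 3.24 (SE 0.38, adjusted p = 9.2e-05), or 9.44-fold. Pcolce2, which enhances the trimming of procollagen, averaged 6.05 on CD34- arrays, under the filter, and so passed through its CD34+ values. It rose by 1.43 (SE 0.42, adjusted p = 0.0263), a call lost after quantile normalization (0.98, adjusted p = 0.143) and in 4 of the 11 fits without 1 array (highest adjusted p = 0.0571). Serpinb2, an inhibitor of urokinase, fell by 1.38 (SE 0.28, adjusted p = 0.00367), and no CD34+ array reached the CD34- range of 12.91 to 13.83. Its lowest value was 10.66 on CD34+ array 1, and without that array the difference was -1.06.

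Activators and other matrix-degrading enzymes that were tested differed by less than 2-fold. Cd44, a hyaluronan receptor that can dock Mmp9, rose by 0.60 (SE 0.18, adjusted p = 0.0256), and Bsg, which induces Mmps in neighbouring cells, fell by 0.43 (SE 0.15, adjusted p = 0.0445). Both calls were lost on leaving out single arrays, with highest adjusted p of 0.0575 and 0.0934, and Cd44 was at 0.12 with equal array medians (adjusted p = 0.659). The secreted serine protease gene Htra1 fell by 0.53 (SE 0.13, adjusted p = 0.00969), the lysosomal Ctsd by 0.62 (SE 0.16, adjusted p = 0.0133, but 0.0641 without CD34- arrays 1 and 2) and the heparanase gene Hpse by 0.94 (SE 0.29, adjusted p = 0.0306). The Hpse call was missing from 6 of the 11 fits without 1 array (highest adjusted p = 0.0706). Ctss, a cathepsin of antigen presenting cells, rose by 0.63 (SE 0.20, adjusted p = 0.031), which 6 of the 11 fits without 1 array did not call (highest adjusted p = 0.0707), nor did equal array medians (0.15, adjusted p = 0.615). Its highest values, 11.76 and 11.91, were on CD34+ arrays 4 and 5. Of all these genes, the model that held the actin ratio called 2, Mme (3.18, adjusted p = 0.0247) and Ctss (1.24, adjusted p = 0.0227), and gave -1.25 for Rhbdf2 (adjusted p = 0.0856), -0.53 for Serpinb2 (adjusted p = 0.542) and -0.46 for Tspan5 (adjusted p = 0.711).

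**Figure D5:**
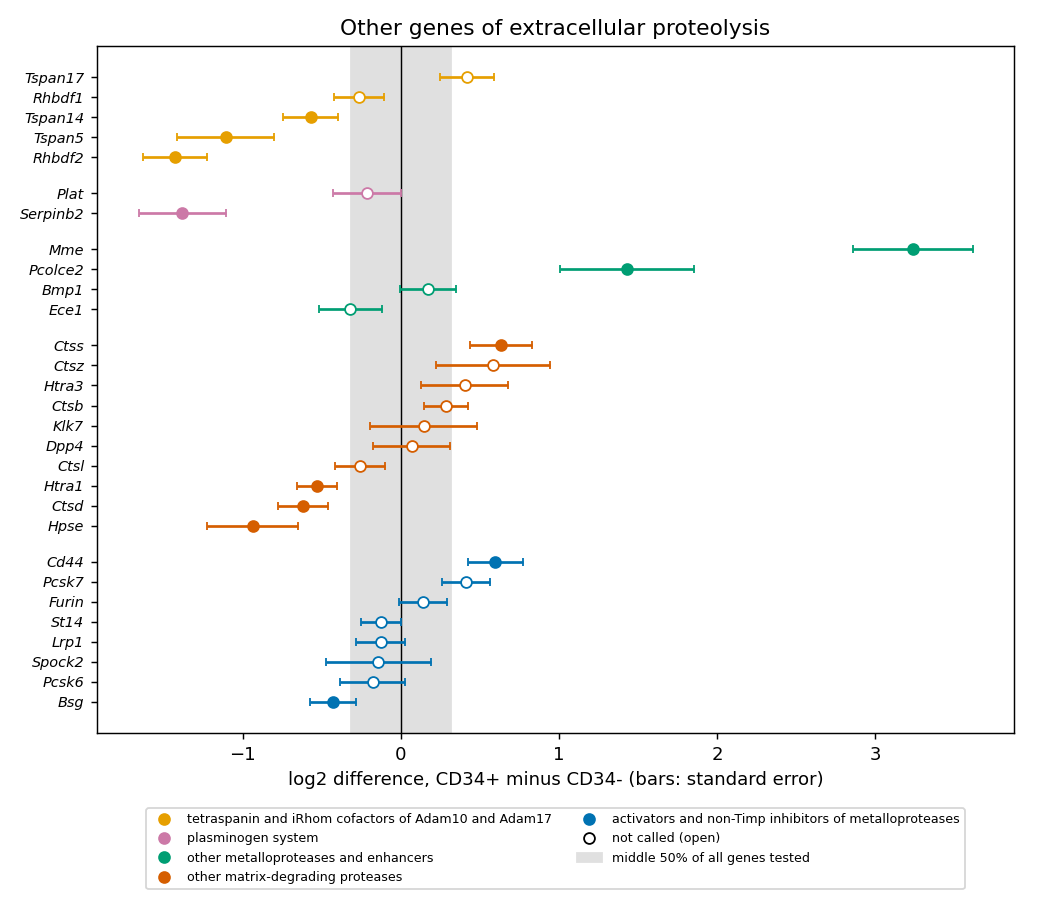
Log2 difference, CD34+ minus CD34-, with its standard error of the 29 tested genes of extracellular proteolysis outside the member families, by list, filled where called, with the middle 50% of all genes tested shaded. Mme lies farthest to the right at 3.24, and Rhbdf2, Serpinb2 and Tspan5 lie farthest to the left.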

How the data were processed

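RNA of 5 CD34+ and 6 CD34- samples was measured on single-channel Affymetrix arrays. The authors deposited 1 log2 value for each probe set of an array. Per the submitters' processing notes MAS5 made them, with version and settings not given in the sources used here. That they are log2 follows from their range, and they were left as deposited. No detection calls were used, so a low value is dim and not absent, and the number of arrays limits the precision.

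Of 45101 probe sets, 34945 had 1 symbol in the platform annotation, and they stand for 18193 genes. All 70 members matched a RefSeq gene of GRCm38.p6 by identifier, and 41 had a promoter in the RefSeq table. The dimmest 40% of genes were left out. CD34+ and CD34- arrays were compared with limma 3.58.1 in R 4.3.3 (linear model, empirical Bayes with intensity trend, Benjamini-Hochberg over 10916 genes) at an adjusted p threshold of 0.05. The fit was tested on simulated data. Values of other probe sets come from the same model over every probe set with 1 symbol.

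Named were every called member, every Timp, the 10 brightest members, the brightest of each role, those beside the brightness filter, and up to 3 called genes of each list and direction. A further 5 members were named after their values were seen, besides Mmp3, Mmp9, Mmp13, Mmp17, Mmp20, Adam25, Rhbdf1, Tspan17 and the marker genes. Members and lists were chosen with earlier results of these data known. The planned split of Adam genes by a zinc-binding motif was not made, since no protein sequences were used here. Alternatives were other normalizations, filters, floors, moderation, weighted arrays, an exact rank-sum test, a replicate block, the actin ratio as a covariate and fits without arrays. Chosen after seeing the data were quantile normalization without a filter, the fit without CD34- arrays 1 and 2, and equal array medians for the genes outside the families.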

Additional observations from a re-analysis of the deposited data

Results flagged for a closer look

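In 70 groups of arrays of 35 named genes, 9 had 1 array far from the others by Dixon's test, which chance alone gives in about 1 of 20 groups. Timp1 read 5.08 on CD34+ array 3, against 6.33 to 6.68 on the other CD34+ arrays. Mmp23 read 3.84 on CD34+ array 4, against 5.78 to 6.56. Serpinb2 read 10.66 on CD34+ array 1, against 12.11 to 12.43, and Tspan5 read 8.82 there, against 10.45 to 11.06. On CD34- array 1, Adam33 read 6.94 against 6.14 to 6.44 on the other CD34- arrays, Timp4 read 4.62 against 5.86 to 6.32, Mmp23 read 5.57 against 2.79 to 3.56 and Ctsd read 12.37 against 11.94 to 12.10. Mme read 5.69 on CD34- array 3, against 6.95 to 7.66.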

How the results depend on the processing

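Leaving out each array in turn gave 4 to 5 members called higher and 2 called lower, in fits that called 17.1% to 25.5% of all genes. Of the 7 called members 6 were called in all 11 of these fits, Adam4 being the exception. Timp2 was the only member called in every setting that tested it. Equal array medians gave 3 higher and 7 lower, beside 51.4% of all genes called. The dimmest 60% left out gave 2 and 1 of 9 tested members, beside 26.5%. The exact rank-sum test gave 1 lower (20.1% of all genes called), as did the fits without CD34+ arrays 1 and 2 (16.7%) and without CD34- arrays 1 and 2 (14.8%). Without CD34+ arrays 1, 2 and 3 there were 3 higher (17.6%). With the actin ratio as a covariate limma called 1 member higher and 0 lower, beside 1.15% of all genes, with 3 and 1 at an unadjusted p under 0.05. It called 2 other genes of proteolysis higher and 0 lower, with 4 and 1 at an unadjusted p under 0.05. Of those other genes, equal array medians called 1 higher and 15 lower, and the fit without CD34- arrays 1 and 2 called 3 and 4. The actin ratio does not overlap between the fractions, and the median standard error was 0.28 with it, against 0.19 without. The rest of the settings gave 4 to 7 members higher and 2 lower, in fits that called 10.7% to 25.8% of all genes. No named gene that was called turned direction in any setting. Pairing by replicate number was not seen clearly: same-numbered arrays had correlations of 0.02 to 0.19 between their deviations, and only CD34+ array 1 correlated best with its own number. Weak correlations cannot exclude a pairing, which the labels do not give. A replicate block gave 5 higher and 2 lower, with Adam4 not called (adjusted p = 0.0932) and Adamts9 called (0.75, adjusted p = 0.0315). Every probe set by itself gave 9 higher and 7 lower of 39 member probe sets, in a fit that called 20.7% of all probe sets. Causes of these changes were not tested. Dim signal limits what can be said of the 55 untested members.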
